A study of Apostichopus japonicus with 12 samples.

Results

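Heat alone was set against low oxygen alone in the sea cucumber Apostichopus japonicus, in its respiratory tree, over 6 of the 12 RNA sequencing libraries of the series, chosen by their treatment labels. The heat group was 3 libraries under thermal stress at 26 °C. The low-oxygen group was 3 libraries under hypoxic stress at 2 mg/L oxygen. The 3 normal control libraries gave the level against which each stress was placed, and 3 libraries under thermal and hypoxic stress together (26 °C and 2 mg/L) are shown as values. What oxygen level the heat group had, what temperature the low-oxygen group had, both conditions of the control and the length of exposure were not given in the sources used here. Whether replicates were separate animals or pools is not said in the labels, so a p-value speaks only of the spread among libraries, which may be technical. All samples are labelled respiratory tree, and this could not be checked against marker genes because the table carries no gene names. The table lists 59494 features, 28586 with AJAP and 30908 with MSTRG identifiers, and 39834 of them had at least 0.5 FPKM (fragments scaled to feature length and library depth) in at least 3 of the 6 libraries and were tested.

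The respiratory tree is a branched organ that opens into the cloaca and is filled with sea water by pumping, and through its thin wall the animal takes up oxygen. Warm water lowers the solubility of oxygen and raises the oxygen demand of the animal, and in animals at large heat is known for inducing chaperones of the heat shock protein families. Low oxygen is known for acting through hypoxia-inducible factors, which switch on genes of anaerobic metabolism and oxygen supply. None of these genes could be looked up, because 0 identifiers matched the RefSeq gene table of the species, and features are given by identifier.

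The recovered library totals ran from 21936663 to 28428042 reads in the heat group, from 22706685 to 23924231 in the low-oxygen group and from 20387909 to 23242750 in the control group. Near 0.5 FPKM a value stood for 10 reads in the median, which leaves 31.6% error from counting. Pearson correlations of log2(FPKM + 0.5) across the tested features (features do not count as replicates) ran from 0.842 to 0.857 among the heat libraries and from 0.873 to 0.887 among the low-oxygen libraries. They ran from 0.825 to 0.859 between a heat and a low-oxygen library, so pairs across the groups were in part as alike as heat replicates. The median SD of a feature over its 3 libraries was 0.503 in the heat group and 0.468 in the low-oxygen group on the log2 scale.

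Heat and low oxygen differed at 49 features, 20 higher and 29 lower in heat, or 0.123% of the features tested (0.0502% higher and 0.0728% lower). The calls are those of limma with an adjusted p under 0.05, and the smallest was 0.0027. In bulk tissue, fewer cells of a type and less RNA per cell cannot be told apart. The log2 changes of the 20 higher features ran from 1.12 to 4.37 with a median of 2.27, and those of the 29 lower features from -5.07 to -1.13 with a median of -2.85. The median absolute log2 change over all tested features was 0.43. The heat and low-oxygen libraries were apart at each of the 49, and at 18.7% of all tested features (11.7% with heat higher and 7.02% with heat lower). The 49 were chosen by this same comparison, so their separation is no further evidence. Before adjustment 4943 features (12.4%) had p under 0.05, 3058 higher and 1885 lower in heat, and 6000 (15.1%) had an absolute log2 change of at least 1, 3925 higher and 2075 lower. The median log2 change over all tested features was 0.13. Median-of-ratios scaling lowered that median by 0.11, to 0.03, and gave 15 higher and 39 lower features, so the share of calls that were higher in heat was 27.8% with that scaling and 40.8% as deposited.

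The count depended on which libraries shared in the estimate of spread and on single libraries. A fit on the heat and low-oxygen libraries alone called 3 features, and a fit on these with the control libraries called 9. Leaving out low-oxygen replicates 1, 2 and 3 gave 1, 3 and 9 features, and leaving out heat replicates 1 and 3 gave 7 and 8. Of the control libraries, omitting replicate 3 gave 28 and omitting replicate 1 gave 32, and of the libraries under both stresses, omitting replicate 2 gave 19 and omitting replicate 3 gave 25. The voom method of limma, applied to recovered reads, called 46 (17 higher, 29 lower in heat), and 36 of them were among the 49.

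**Figure D1:**
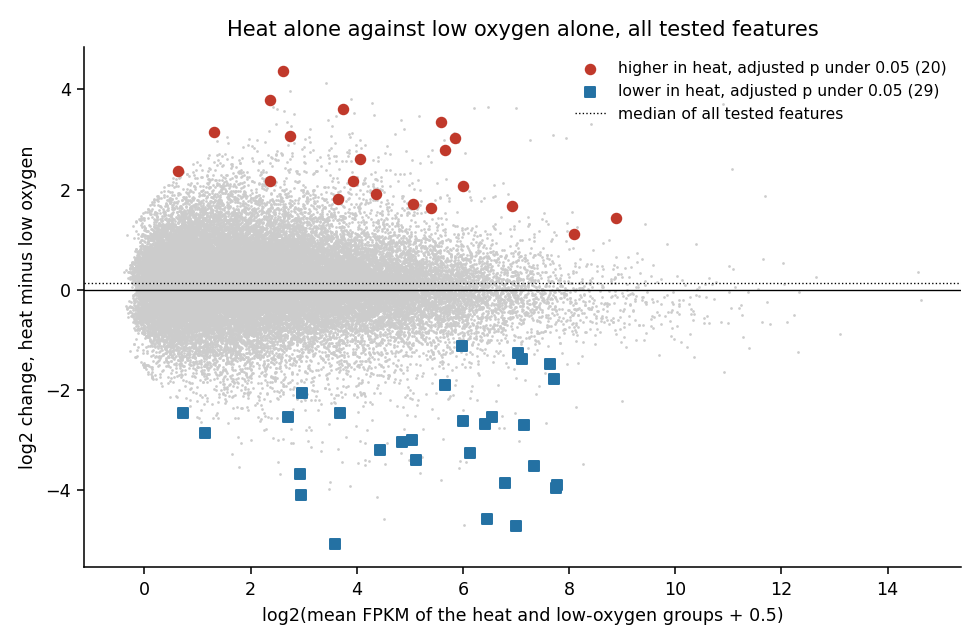
Log2 change of heat minus low oxygen (vertical axis) against log2 of the mean FPKM of both groups plus 0.5 (horizontal axis) for the 39834 tested features, with the 20 called higher in heat as circles and the 29 called lower as squares. The dotted line is the median of all tested features, 0.13, and the called features lie from 1.12 to 4.37 above and from -1.13 to -5.07 below 0.

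Calls became more frequent with the level of a feature, taken as its mean over the 6 libraries. They made up 0.0305% of 13109 features at 2 FPKM or less and 0.0513% of 15591 features from there to 10 FPKM. From 10 to 50 FPKM they made up 0.174% of 8615 features, and over 50 FPKM 0.873% of 2519. Absolute log2 changes of at least 1 were seen at 15.3% and 17.1% of features in the lower bins and at 12.4% of those from 10 to 50 FPKM, with the smallest share over 50 FPKM. The features where heat was higher and those where it was lower had recovered lengths with medians of 1038 and 960 bases, beside a median of 990 for all tested features. The 29 features lower in heat took between 0.0744% and 0.0909% of the summed FPKM of a heat library and between 0.414% and 0.555% of a low-oxygen library. Their share was 0.175% to 0.224% under both stresses and 0.109% to 0.125% in the control libraries. The 20 features higher in heat took 0.223% to 0.265% of a heat library and 0.0664% to 0.0842% of a low-oxygen library. They took 0.156% to 0.185% under both stresses and 0.136% to 0.154% in the control. These sums describe features chosen by the same comparison.

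AJAP08740 had the smallest adjusted p of the features higher in heat. Among those lower in heat AJAP25783 and AJAP19542 shared the smallest. AJAP08740 held 95.6, 84.5 and 127 FPKM in the heat libraries, 14.1, 9.71 and 12.3 FPKM in the low-oxygen libraries and 57.3, 75.8 and 57.2 FPKM in the control libraries. Every heat library was above every control library, and every low-oxygen library was far below them. It averaged 102 ± 21.8 FPKM in heat and 12.03 ± 2.22 FPKM in low oxygen (SD, n = 3 each), a log2 change of 3.03 (SE 0.26, adjusted p = 0.0027 with limma). It passed in each of 26 other fits, with an adjusted p of at most 0.044, reached in the fit on the 2 groups alone. AJAP25783 held 18.4, 12.2 and 9.10 FPKM in the heat libraries, 131, 137 and 109 FPKM in the low-oxygen libraries and 18.0, 9.54 and 14.3 FPKM in the control libraries. The heat libraries spanned the control range and the low-oxygen libraries stood well above both. The log2 change of heat minus low oxygen was -3.25 (SE 0.32, adjusted p = 0.0045), and it passed in 25 of 26 other fits, missing the threshold without low-oxygen replicate 1 (adjusted p = 0.052). AJAP19542, named here for that tie after its values were seen, held 31.7, 13.2 and 37.1 FPKM in the heat libraries, 340.5, 238 and 309 FPKM in the low-oxygen libraries and 28.7, 32.2 and 47.8 FPKM in the control libraries. Heat and control overlapped and low oxygen stood well above both, with heat minus low oxygen at -3.52 (SE 0.35, adjusted p = 0.0045), and 24 of 26 other fits called it.

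The control level was used to place each of the 49 features. A control position was taken as the distance of the control mean from the low-oxygen mean, divided by the distance of the heat mean from the low-oxygen mean, on log2(FPKM + 0.5). It is 0 where the control stood at the low-oxygen level and 1 where it stood at the heat level. The control stood near the heat level (within 0.25 of it on this scale) at 30 features and between the levels at 12. It stood near the low-oxygen level (within 0.25) at 6 and more than 0.25 beyond the heat level at 1. It was nearer to heat than to low oxygen at 39 of 49 features (79.6%), with a median position of 0.82. Among the 6000 features with an absolute log2 change of at least 1, it was nearer to heat at 57.0%, with a median position of 0.60. By direction, 27 of the 29 features lower in heat (93.1%) and 12 of the 20 higher in heat (60.0%) had the control nearer to heat, against 64.2% and 53.1% of features past an absolute log2 change of 1 in the same directions. The count for all 49 was 38, 39 and 38 without control replicates 1, 2 and 3.

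Set against the control itself, 39 of the 49 features lay closer to it in heat than in low oxygen. The median absolute log2 change of the 49 was 0.55 for heat minus control and 2.10 for low oxygen minus control. For low oxygen minus control limma called 29 of the 49, where it called 0.477% of all tested features (0.326% higher and 0.151% lower), 190 in all, and voom called 71. That comparison uses the same low-oxygen libraries that chose the 49, so the 29 are no independent evidence. For heat minus control limma called 0 of the 49 and 0% of all features, where 4303 features had an unadjusted p below 0.05, and voom called 0 (4174 unadjusted). With the minimum of 0.5 FPKM asked in any 3 of the 12 libraries instead of these 6, heat minus control had 8 calls. The control libraries are shared by both comparisons.

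**Figure D2:**
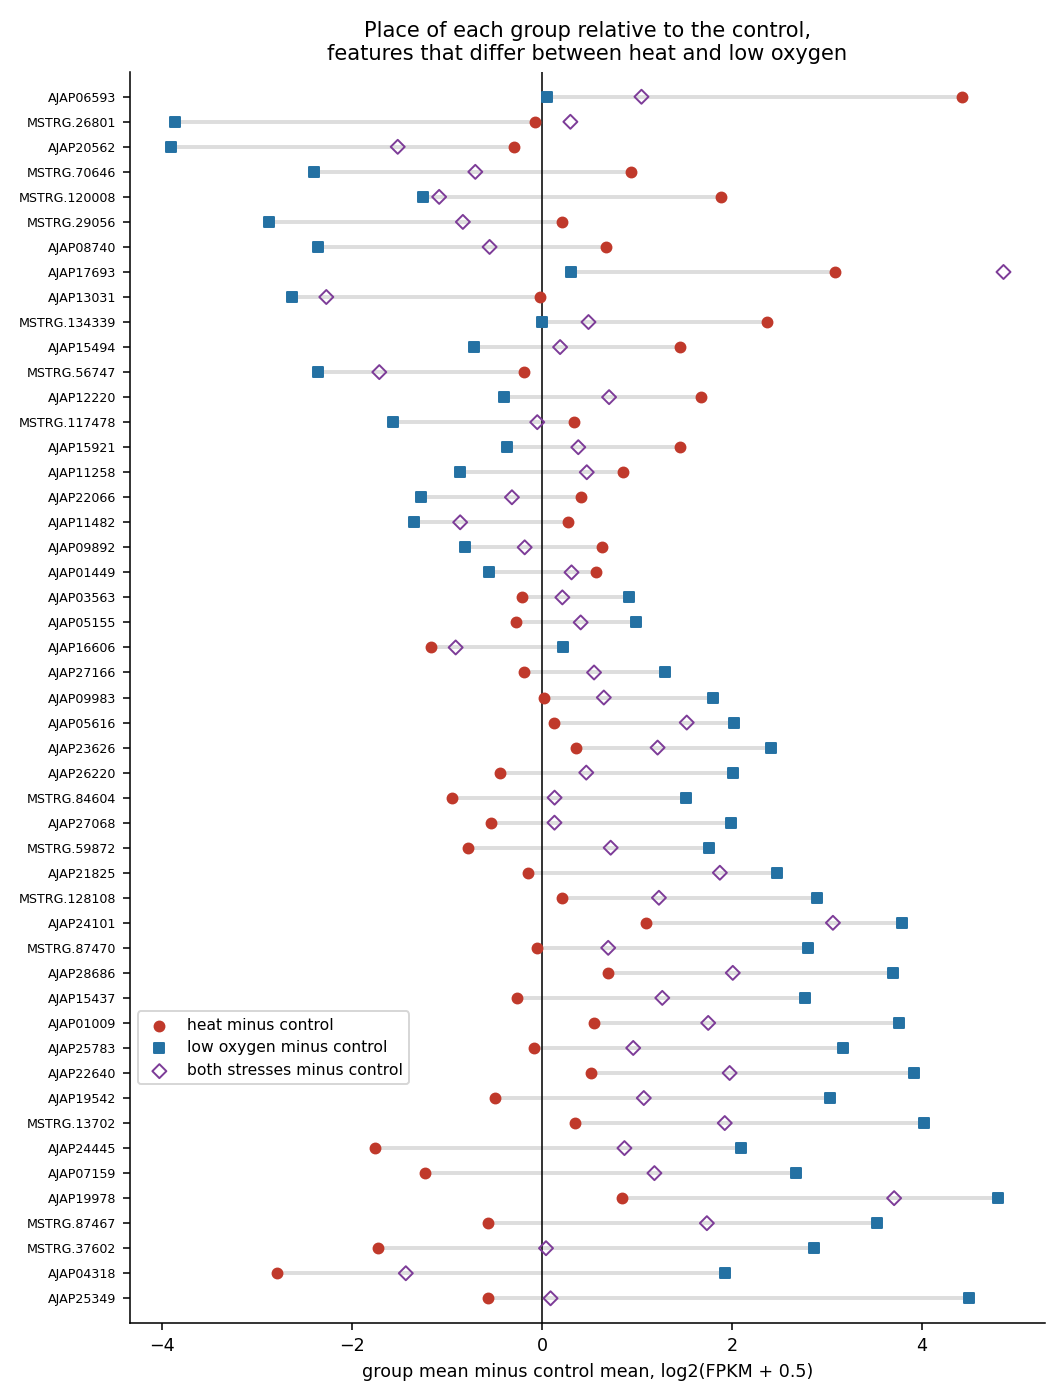
Group mean minus control mean on log2(FPKM + 0.5) (horizontal axis) for the 49 features that differed between heat and low oxygen (rows, the largest rise in heat over low oxygen at the top), with heat as circles, low oxygen as squares and both stresses as open diamonds. At 30 of the 49 features the circle lies close to the control line at 0, and the diamond lies between circle and square at 47. Circle and square lie far apart by the choice of these features.

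Where the control stood near heat, the low-oxygen mean was the one that stood away from both. This held for 9 features higher in heat, of which 8 were also called in low oxygen minus control, and for 21 lower in heat, of which 19 were. The log2 changes of these 30 features in low oxygen minus control ran from 0.92 to 4.80 in absolute size. Those of heat minus control reached at most 0.84. The class was defined by a control near heat, so these sizes and calls largely follow from its rule and are no separate result.

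AJAP20562 held 14.2, 16.8 and 41.6 FPKM in the heat libraries, 0.907, 0.861 and 2.62 FPKM in the low-oxygen libraries and 32.1, 21.7 and 27.1 FPKM in the control libraries. The heat and control libraries overlapped, and the highest low-oxygen library was below all of them. Heat minus low oxygen was 3.60 on the log2 scale (SE 0.46, adjusted p = 0.019), while low oxygen minus control was -3.90 (adjusted p = 0.0089) and heat minus control -0.30 (adjusted p = 0.86). The call was lost without heat replicate 3 (adjusted p = 0.066) and without low-oxygen replicate 1 or 2 (adjusted p = 0.094 each). MSTRG.26801 held 7.08, 17.2 and 3.23 FPKM in the heat libraries, 0, 0.0569 and 0.176 FPKM in the low-oxygen libraries and 11.5, 4.67 and 8.90 FPKM in the control libraries. Its low-oxygen values rested on 4 reads in all, against 513 reads in heat and 409 in the control. With no low-oxygen library at 0.5 FPKM, it passed the filter through heat alone, so these groups had to be apart. The log2 change of heat minus low oxygen was 3.79 (SE 0.55, adjusted p = 0.029), and 6 of the 12 fits without a library no longer called it, with an adjusted p of at most 0.12, reached without low-oxygen replicate 1.

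MSTRG.87467 held 0.756, 0.434 and 0 FPKM in the heat libraries, 15.4, 17.2 and 9.75 FPKM in the low-oxygen libraries and 0.402, 1.52 and 0.544 FPKM in the control libraries. Heat and control overlapped at low levels, and each low-oxygen library was above 9 FPKM. The log2 change of heat minus low oxygen was -4.09 (SE 0.47, adjusted p = 0.014), with low oxygen minus control at 3.52 (adjusted p = 0.014). Without low-oxygen replicates 1 and 2 the adjusted p was 0.081 and 0.094. AJAP25349 held 0.0456, 0 and 0 FPKM in the heat libraries, 26.9, 37.9 and 4.37 FPKM in the low-oxygen libraries and 0, 0 and 1.28 FPKM in the control libraries. It had 1 read in heat and 1249 in low oxygen, and its depth-scaled reads were 1345 times as many in low oxygen as in heat (exact 95% interval 241 to 53170, for counting error only). Low-oxygen replicate 3 was the lowest of its group and control replicate 3 the highest of its own. With no heat library at 0.5 FPKM, AJAP25349 passed the filter through low oxygen alone, so these groups had to be apart. The fitted log2 change of -5.07 (SE 0.74, adjusted p = 0.029) depends on the pseudocount, and it lost the call in 7 of the 12 fits without a library, with an adjusted p of up to 0.12 without low-oxygen replicate 1.

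At 12 features the control lay between the stressed groups, 6 of them higher and 6 lower in heat. Low oxygen minus control was called at 1 of the 6 higher features and at 0 of the 6 lower ones, and heat minus control at none of the 12 (limma). MSTRG.70646, the 1 called against the control, held 65.1, 56.4 and 140 FPKM in the heat libraries, 9.14, 7.6 and 5.94 FPKM in the low-oxygen libraries and 21.8, 44.3 and 73.7 FPKM in the control libraries. The control libraries were all above the low-oxygen ones, and control replicate 3 lay within the heat range. The log2 change of heat minus low oxygen was 3.34 (SE 0.43, adjusted p = 0.019), and low oxygen minus control was -2.40 (adjusted p = 0.038). AJAP15494 held 20.7, 24.5 and 27.6 FPKM in the heat libraries, 5.03, 6.64 and 3.60 FPKM in the low-oxygen libraries and 6.23, 11.7 and 8.30 FPKM in the control libraries. The heat libraries were close together and above all others, and low oxygen and control overlapped. Heat minus low oxygen was 2.17 (SE 0.31, adjusted p = 0.028), with heat minus control at 1.45 (adjusted p = 0.17). These features lost the call in 5 and 7 of the 12 fits without a library, with adjusted p of up to 0.094 and 0.11, the first without low-oxygen replicate 2 and the second without low-oxygen replicate 1.

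AJAP04318 and MSTRG.37602 were the features of this kind with the largest falls. AJAP04318 held 5.13, 11.9 and 8.64 FPKM in the heat libraries, 197, 390 and 148 FPKM in the low-oxygen libraries and 25.1, 200 and 40.7 FPKM in the control libraries. Each heat library was below each control library, and control replicate 2 reached the low-oxygen range. Heat minus low oxygen was -4.71 (SE 0.71, adjusted p = 0.03). Heat minus control was -2.79 and low oxygen minus control 1.92, with adjusted p = 0.24 for each in limma's test. MSTRG.37602, with a recovered length of 4903 bases, held 10.4, 2.14 and 8.57 FPKM in the heat libraries, 229, 192 and 80.3 FPKM in the low-oxygen libraries and 6.77, 34.5 and 36.3 FPKM in the control libraries. Control replicate 1 lay within the heat range. Heat minus low oxygen was -4.58 (SE 0.75, adjusted p = 0.046). AJAP04318 lost the call in 7 of the 12 fits without a library, with an adjusted p of up to 0.12 without low-oxygen replicate 1 or 2, and MSTRG.37602 in 10, with up to 0.18 without low-oxygen replicate 1.

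At 6 features the control stood near low oxygen, with the heat mean above both at 5 and below both at 1. None of the 6 was called in heat minus control, where the smallest adjusted p was 0.057 (limma). AJAP17693 held 73.5, 149 and 43.4 FPKM in the heat libraries, 11.2, 7.56 and 15.3 FPKM in the low-oxygen libraries and 6.36, 7.63 and 13.6 FPKM in the control libraries. Low oxygen and control overlapped, and the lowest heat library was well above both. On the log2 scale, heat minus low oxygen was 2.78 (SE 0.42, adjusted p = 0.031) and heat minus control 3.09 (adjusted p = 0.057). AJAP06593 held 18.4, 6.49 and 8.81 FPKM in the heat libraries, 0.0404, 0.0192 and 0 FPKM in the low-oxygen libraries and 0 in each control library. Its low-oxygen values rested on 3 reads, against 1913 in heat. After scaling for depth that is 592 times as many (202 to 2874, exact 95% interval, for counting error only). Against 0 control reads heat was at least 557-fold higher at a floor of 3 reads over the group. With no low-oxygen library at 0.5 FPKM, AJAP06593 passed the filter through heat alone, so these groups had to be apart. Its adjusted p in heat minus low oxygen was 0.0498 and it lost the call in 10 of the 12 fits without a library, with up to 0.16 without low-oxygen replicate 1 or 2. AJAP17693 lost it in 8, with up to 0.12 without low-oxygen replicate 1 or 2.

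The other 3 features of this kind that were higher in heat are named after their values were seen. AJAP12220 held 93.3, 83.2 and 132 FPKM in the heat libraries, 30.6, 14.2 and 29.5 FPKM in the low-oxygen libraries and 34.3, 26.6 and 33.2 FPKM in the control libraries. AJAP15921 held 20.95, 18.1 and 17.5 FPKM in the heat libraries, 6.38, 3.59 and 5.35 FPKM in the low-oxygen libraries and 7.10, 6.97 and 5.75 FPKM in the control libraries. Both had every heat library above every other library of these groups, with log2 changes of heat minus low oxygen of 2.08 (SE 0.30, adjusted p = 0.029) and 1.82 (SE 0.30, adjusted p = 0.049). MSTRG.134339 held 2.46, 2.05 and 1.76 FPKM in the heat libraries and had no reads in the low-oxygen and control libraries. In the order AJAP12220, AJAP15921 and MSTRG.134339, 6, 1 and 2 of the 12 fits without a library kept the call, with adjusted p of up to 0.097, 0.18 and 0.12. AJAP16606 was the feature that was lower in heat. It held 70.2, 74.8 and 80.7 FPKM in the heat libraries, 211, 148 and 247 FPKM in the low-oxygen libraries and 187, 151 and 171 FPKM in the control libraries. The control libraries lay within the low-oxygen range and every heat library was lower. The log2 change of heat minus low oxygen was -1.39 (SE 0.22, adjusted p = 0.037) and heat minus control -1.17 (adjusted p = 0.12). It kept the call in 1 of the 12 fits without a library, and the highest adjusted p was 0.16, without low-oxygen replicate 1.

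AJAP24101 was the 1 feature at which the control lay beyond the heat level, so that both stresses stood on the same side of it. It held 75.0, 39.2 and 16.5 FPKM in the heat libraries, 247, 265 and 211 FPKM in the low-oxygen libraries and 14.9, 16.2 and 20.1 FPKM in the control libraries. Heat replicate 3 lay within the control range and the other heat libraries above it. Low oxygen minus control was 3.79 (adjusted p = 0.0089), heat minus control 1.09 (adjusted p = 0.40) and heat minus low oxygen -2.70 (SE 0.44, adjusted p = 0.046). The call was lost in 10 of the 12 fits without a library, with an adjusted p of up to 0.16 without low-oxygen replicate 1 or 2.

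**Figure D3:**
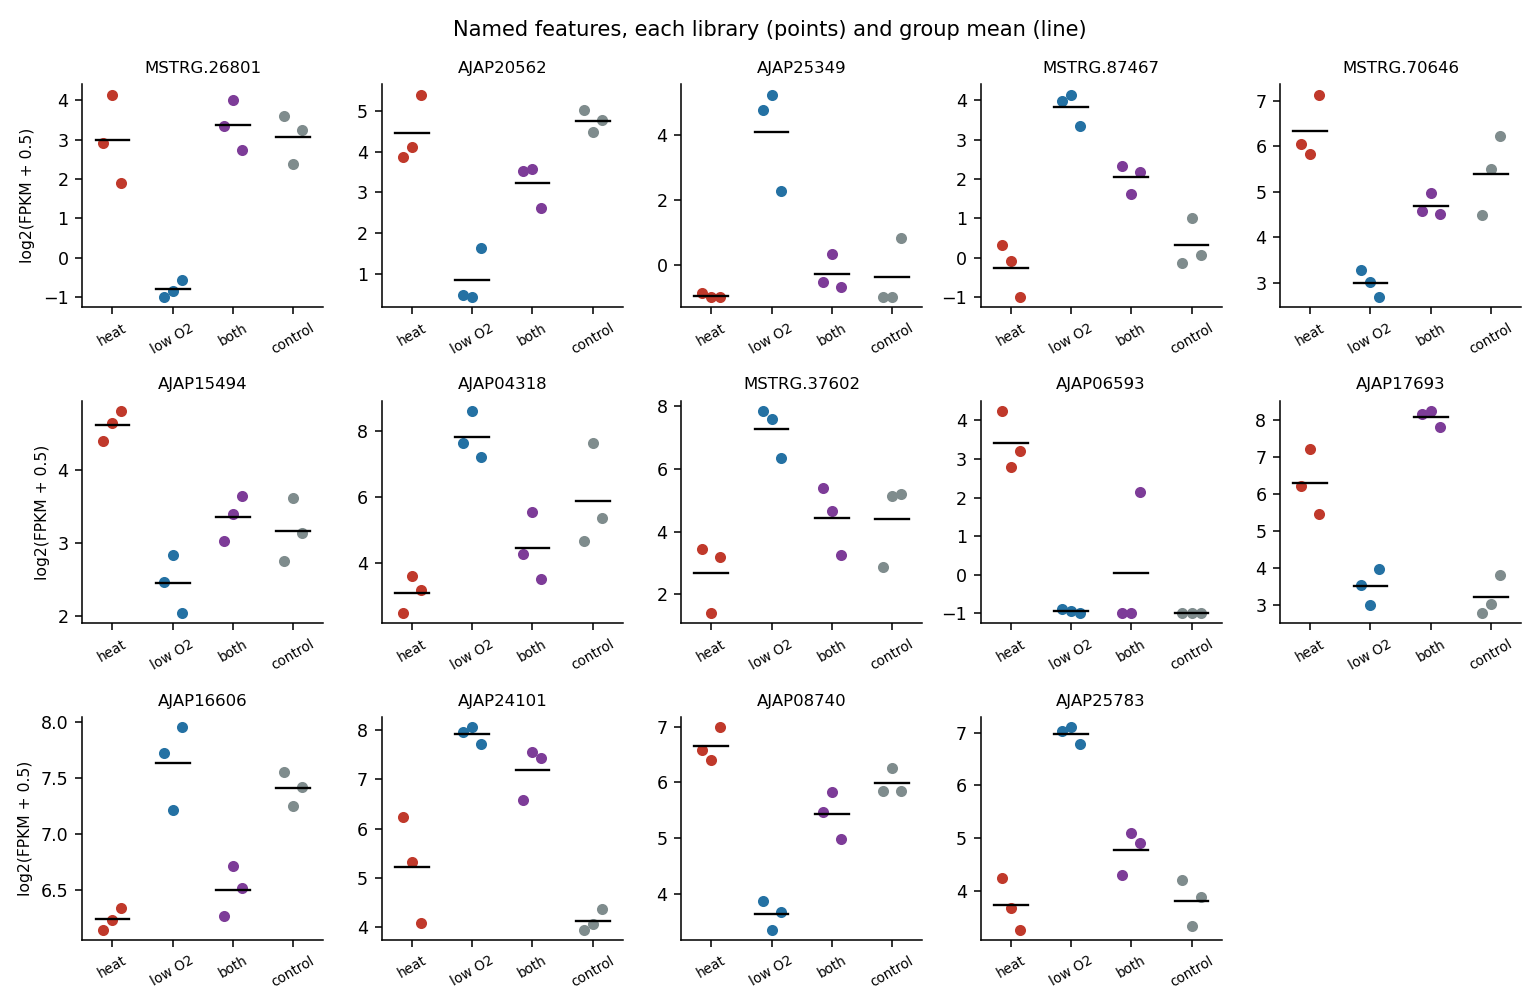
Log2(FPKM + 0.5) of each library (points) and group mean (line) for the 14 features named by rule, with the groups heat, low oxygen, both stresses and control from left to right in each panel. AJAP08740 shows heat at 84.5 to 127 FPKM and low oxygen at 9.71 to 14.1 FPKM, and AJAP17693 shows the libraries under both stresses above all others.

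The libraries under both stresses took no part in choosing the 49 features beyond the shared estimate of spread. Their mean lay between the heat and low-oxygen means at 47 of the 49 and beyond the heat mean at 2. Its median position was 0.56 on the scale used for the control. The 49 were chosen for heat and low-oxygen means far apart, which leaves another mean much room between them. No share over all tested features is given for this, so the 47 are not read as a result. The mean under both stresses was nearer to heat at 30 of the 49 (61.2%). Among the features with an absolute log2 change of at least 1 it was nearer to heat at 50.8%. Taken singly, replicates 1, 2 and 3 under both stresses were nearer to heat at 30, 29 and 20 features. The 2 features beyond the heat mean, AJAP17693 and MSTRG.26801, were also the 2 of the 49 called in both stresses minus low oxygen, where limma called 0.0176% of all features, 7 in all, and voom called 1. AJAP17693 held 285, 300 and 223 FPKM under both stresses, above every heat library, with a log2 change of 4.55 against low oxygen (adjusted p = 0.0055) and 1.77 against heat (adjusted p = 0.23). MSTRG.26801 held 9.64, 15.7 and 6.13 FPKM under both stresses, within the heat and control ranges together, and 4.17 above low oxygen on the log2 scale (adjusted p = 0.046). AJAP16606 held 76.3, 105 and 91.1 FPKM under both stresses, below every low-oxygen and control library, and AJAP24101 held 95.1, 187 and 171 FPKM, above every heat library. AJAP06593 held 0, 0 and 3.9 FPKM, with reads in replicate 3 alone. In both stresses minus heat limma called 0 of the 49 and 0 of all features, although 3751 had p below 0.05 unadjusted, and voom called 0 (3548 unadjusted). The median absolute log2 change of the 49 was 1.22 in both stresses minus heat and 1.33 in both stresses minus low oxygen.

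The identifier class is the only annotation in the table. Of the 49 called features 35 were AJAP (0.166% of 21062 tested) and 14 MSTRG (0.0746% of 18772 tested), with 13 AJAP and 7 MSTRG features higher in heat and 22 AJAP and 7 MSTRG features lower. Across all tested features the MSTRG class lay higher in heat, with a median log2 change of 0.23 against 0.07 for the AJAP class. Under median-of-ratios scaling the medians were 0.14 for MSTRG and -0.05 for AJAP, and under quantile normalization 0.08 and -0.05, so the sign of the AJAP median depends on the scaling. The MSTRG median was above it by 0.17 as deposited, 0.19 with median-of-ratios and 0.13 with quantile scaling. The MSTRG median was above the AJAP median in each of the 9 pairs of a heat with a low-oxygen library, by 0.05 to 0.33, the smallest distance with low-oxygen replicate 3. An absolute log2 change of at least 1 was seen at 18.6% of MSTRG features (2545 higher and 940 lower in heat) and 11.9% of AJAP features (1380 higher and 1135 lower). MSTRG features were at lower levels, with a median of 2.12 FPKM against 7.33 FPKM for AJAP. By level bin the MSTRG median was the higher in each of the 4, at 0.22 against 0.09 in the lowest and 0.04 against -0.09 in the highest, and the part of level in the class difference was not tested.

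MSTRG features took 20.2%, 20.4% and 22.8% of the summed FPKM of the heat libraries, 16.7%, 17.3% and 18.5% of the low-oxygen libraries and 20.2%, 20.2% and 16.3% of the control libraries. The heat and low-oxygen libraries did not overlap, and control replicate 3 lay below every low-oxygen library. The means were 21.1% ± 1.45 in heat and 17.5% ± 0.94 in low oxygen (SD, n = 3 each), a difference of 3.65 percentage points with p = 0.10 in a two-sided exact permutation test, the smallest that 3 against 3 libraries can give. Under both stresses the share was 18.9% to 20.9%. Features at or above 0.5 FPKM numbered 38870, 39192 and 39629 in the heat libraries and 36721, 37111 and 38884 in the low-oxygen libraries, against 38077 to 39294 in the control libraries. The groups overlapped by low-oxygen replicate 3 alone, and the difference of 1658 features had an exact permutation p of 0.20 (two-sided). MSTRG features made up most of it, with a mean of 18558 ± 419 in heat and 17144 ± 862 in low oxygen (exact permutation p = 0.10), while AJAP features numbered 20673 ± 39.7 and 20428 ± 309 (exact permutation p = 0.40). As a share of recovered reads MSTRG features took 27.9% ± 2.59 in heat and 24.3% ± 1.11 in low oxygen (exact permutation p = 0.10). Adjusted over the 7 library measures tested, the p-values of 0.10 became 0.14, that of 0.20 became 0.23 and that of 0.40 stayed at 0.40 (exact permutation tests, Benjamini-Hochberg).

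**Figure D4:**
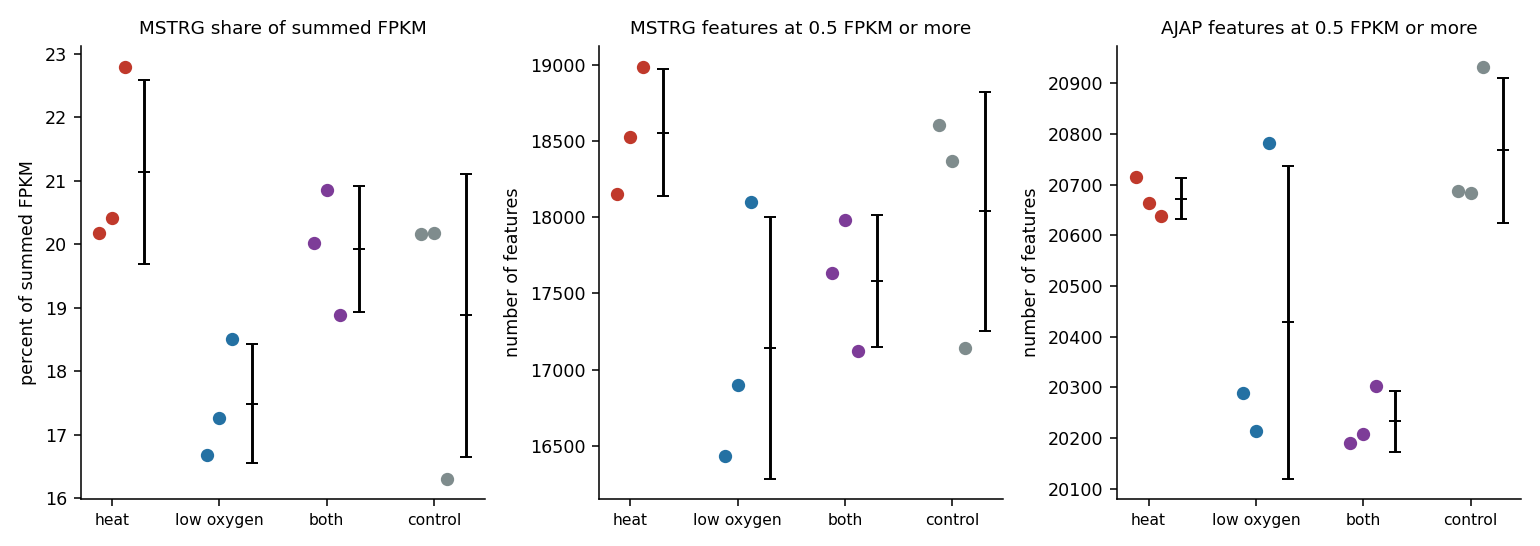
MSTRG share of summed FPKM (left, percent), MSTRG features at 0.5 FPKM or more (middle, number) and AJAP features at 0.5 FPKM or more (right, number) for each library (points), with mean and SD of the 3 libraries of a group beside them, in the order heat, low oxygen, both stresses and control. The MSTRG shares are 20.2% to 22.8% in heat and 16.7% to 18.5% in low oxygen, and low-oxygen replicate 3 stands apart from the other low-oxygen libraries in the counts of features.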

How the data were processed

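Total RNA was depleted of ribosomal RNA with a kit made for human, mouse and rat, and made into directional libraries, per the labels' protocols. The deposited values were FPKM, 1 column per library, matched to libraries by title. DESeq 1.16, Cufflinks, TopHat2 2.0.12 and Bowtie2 2.2.3 are named in the notes on processing by the submitters. What each did, which genome build and annotation served and whether counting was by strand were not given in the sources used here, so reads of antisense partners or near-identical copies may be mixed or split.

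Whole reads were recovered from the FPKM values as multiples of 1 read per length and library total. All 49 called features had reads in at least 4 libraries. Features that reached 0.5 FPKM in 3 or more of the 6 heat and low-oxygen libraries were taken as log2(FPKM + 0.5), a scale that understates changes of low values. Limma 3.58.1 (R 4.3.3) was fitted to all 12 libraries with 4 group means and a variance trend, and p-values were adjusted by Benjamini-Hochberg over all tested features. Of features with adjusted p under 0.05, groups apart and a mean of at least 5 FPKM, the 2 with the largest change per direction and control position were named, plus the smallest adjusted p in each direction, with a tie settled by the unadjusted p. Members, lists and tests were chosen with earlier results of these data known. Alternatives were other pseudocounts, filters, scalings, groups in the fit, weights and variance options, a replicate block, a fold minimum, voom and each library left out. Other values used Python 3.11.15, numpy 2.4.6, pandas 2.3.3, scipy 1.17.1 and matplotlib 3.10.9.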

Additional observations from a re-analysis of the deposited data

How the results depend on the processing

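The count of 49 features was within 1.5 times under 14 of 27 alternatives. A like count did not always mean the same features. Without heat replicate 2, 22 of 41 calls were among the 49, and without a variance trend 25 of 36, but with a pseudocount of 1 it was 48 of 52. The fold minimum, 1 of the 14, could not alter the list, as the smallest called change was 1.12. The count was 3 in the fit on the heat and low-oxygen libraries only and 9 in the fit that added the control libraries. Array weights gave 81, which held all 49. Leaving out each of the 12 libraries gave 1 to 54. Whether replicate numbers pair the libraries could not be settled. The deviations of same-numbered heat and low-oxygen libraries correlated at 0.03 to 0.04, and each of the 6 correlated best with its own number. Over all pairs of groups the correlations of same-numbered libraries ran from -0.096 to 0.094. With the replicate block the count was 6. Of 378 values of the 14 named features under alternatives, 235 kept the direction and the call and 143 the direction without the call. The 0 reversals are no evidence of stability. These features were chosen with their groups apart, so leaving out a library could not reverse one. Filters, variance options and the choice of groups in the fit left each change as it was. Voom called 9 of the 14 and not MSTRG.26801, AJAP20562, AJAP25349, MSTRG.87467 or AJAP06593 (adjusted p = 0.17, 0.084, 0.20, 0.066 and 0.13). The share of called features with the control nearer to heat ran from 69.4% to 100% over the fits that hold the control. Like voom, it was chosen as an alternative after seeing the data. The 100% came only from the fits without low-oxygen replicates 1, 2 and 3, which called 1, 3 and 9 features. The difference in the MSTRG share kept its direction under 8 alternatives (2.82 to 4.17 points), and that in features detected under 7 (1233 to 2314). Leaving out a library could not reverse the difference in the MSTRG share, because its groups did not overlap. The distance between the MSTRG and AJAP medians was 0.12 to 0.21 under 14 alternatives, also chosen after seeing the data. Voom, at 0.22, and a pseudocount of 0.1, at 0.21, are not among the 14. Omitting a library of the control or of both stresses cannot move this distance from 0.17. The causes of these shifts were not tested. At 0.5 FPKM depth limits a value to an error of 31.6% from counting alone.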

Other observations

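Some features were present under 1 stress and without reads under the other. Of the features tested, 46 had no reads in the 3 low-oxygen libraries, 44 of them MSTRG, and 31 had no reads in the 3 heat libraries, 28 of them MSTRG. The mean of the group with reads had a median of 1.52 FPKM in heat for the first kind and 1.21 FPKM in low oxygen for the second, and reached at most 9.69 and 6.10 FPKM. A group with no reads allows up to 3 reads, so such features are not shown to be absent. The control libraries were also without reads at 9 of the 46 and 7 of the 31, and all 3 had reads at 11 and 6.

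Such a feature was tested only because all 3 libraries of the group with reads reached 0.5 FPKM, so its groups had to differ and no share of calls is read from them. Limma called 2 features of each kind, and these are named after their values were seen. Besides MSTRG.134339, at least 20.4-fold higher in heat against 3 reads over the low-oxygen group, MSTRG.120008 held 4.38, 3.05 and 4.46 FPKM in heat, none in low oxygen and 0.202, 1.74 and 0.574 FPKM in the control. It was at least 20.7-fold higher in heat than in low oxygen and had 1 read in the libraries under both stresses. MSTRG.87470 held no reads in heat, 1.94, 5.56 and 2.69 FPKM in low oxygen and 0, 0.0526 and 0 FPKM in the control, and was at least 80.0-fold higher in low oxygen than in heat. AJAP26220 held no reads in heat, 1.99, 3.26 and 1.68 FPKM in low oxygen and 0.141, 0 and 0.469 FPKM in the control, and was at least 37.3-fold higher in low oxygen. Voom called none of the 4, with adjusted p from 0.082 to 0.099, and of the 12 fits without a library 5 called MSTRG.120008, 1 called MSTRG.87470 and 0 called AJAP26220 (adjusted p up to 0.11, 0.12 and 0.18).

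Among the 100 features of highest mean level over the 6 libraries, each at 705 FPKM or more, limma called 0, with a smallest adjusted p of 0.076. It called 0.123% of all tested features and 0.873% of those over 50 FPKM, so 0 of 100 is near these shares and is not read as a result. In 40 of the 100 the heat and low-oxygen libraries did not overlap, against 18.7% of all tested features. That share rose with level and was 27.7% of the 2519 features over 50 FPKM. An absolute log2 change of at least 1 was seen at 10, of which 3 were higher and 7 lower in heat.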
